A study of Drosophila melanogaster with 2 samples.

Results

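The genes described are 5 transcription factor genes that pattern the embryonic neuroectoderm of *Drosophila melanogaster*, namely vnd, ind, Dr, SoxN and D, out of 13945 protein-coding genes on the 6 chromosome arms analysed. They were chosen by name for their role, and every peak summit of E(spl)m8-HLH in a gene body or within 2 kb of it was taken from each of 4 peak lists. Such a summit was present at 4 of the 5 genes in the optimal set, where 5 of its 6152 summits lay. The counts were 26 of 30000 summits in the list called on pooled replicates, 22 of 30000 in replicate 2 and 26 of 30000 in replicate 3.

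The data are chromatin immunoprecipitations, with an anti-GFP antibody per the sample descriptions (the antibody label gives the target, E(spl)m8-HLH), from transgenic flies in which GFP is fused to the C terminus of a stably expressed E(spl)m8-HLH. There was 1 group of 2 biological replicates, numbered 2 and 3. Each was made from whole male and female embryos, pooled, at 4 to 14 h of age per the source name (the age label holds a number that is no embryonic age), with chromatin sonicated to 200 to 800 bp. Both replicates came from the same line, and the sources used here do not give the promoter that drives the fusion protein. The optimal set holds peaks that the authors selected by irreproducible discovery rate, a measure of how well replicates rank the same peaks, and all 6152 were the strongest peaks of the pooled list. In whole embryos, occupancy in few cells and weak occupancy in many cells cannot be told apart.

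E(spl)m8-HLH is a basic helix-loop-helix repressor of the Hairy/E(spl) family that Notch signalling switches on, and in the neuroectoderm such repressors keep cells next to a forming neuroblast from a neural fate. The neuroectoderm is divided from ventral to dorsal into columns by homeodomain repressors: vnd marks the ventral column, ind the intermediate column and Dr, also called muscle segment homeobox, the dorsal column. SoxN (SoxNeuro) and D (Dichaete) encode SoxB proteins that act across much of the neuroectoderm and promote the formation of neuroblasts together with the columnar genes.

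The bases at the 5 optimal summits, and at the strongest pooled summit of ind, show what the summits share and where they differ. They were read from the Release 6 genome (dm6) as far as 100 bp to either side of the summit, with exon bases left out, and only 30 bases are shown for SoxN because its summit lies in the 5′ UTR. Capitals mark matches to the motifs described with the sequence results.
vnd upstream, chrX:581933-582120, plus strand: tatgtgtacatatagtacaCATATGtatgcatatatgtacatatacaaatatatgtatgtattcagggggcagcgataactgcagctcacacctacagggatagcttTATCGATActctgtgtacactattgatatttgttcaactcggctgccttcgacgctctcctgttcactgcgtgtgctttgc
Dr upstream, chr3R:29556157-29556357, plus strand: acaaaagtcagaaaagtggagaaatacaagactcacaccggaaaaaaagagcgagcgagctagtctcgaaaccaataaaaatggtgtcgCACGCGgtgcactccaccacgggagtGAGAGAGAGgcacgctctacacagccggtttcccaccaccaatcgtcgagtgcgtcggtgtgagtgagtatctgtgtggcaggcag
Dr downstream, chr3R:29567093-29567293, plus strand: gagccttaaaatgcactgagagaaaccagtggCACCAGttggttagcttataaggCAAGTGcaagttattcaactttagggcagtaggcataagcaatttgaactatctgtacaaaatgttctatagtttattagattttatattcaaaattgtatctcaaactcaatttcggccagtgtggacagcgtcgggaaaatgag
SoxN start, chr2L:8825661-8825690, plus strand: ttcgccgtcgtcagcaCACGCGcacgcaac
D downstream, chr3L:14174307-14174507, plus strand: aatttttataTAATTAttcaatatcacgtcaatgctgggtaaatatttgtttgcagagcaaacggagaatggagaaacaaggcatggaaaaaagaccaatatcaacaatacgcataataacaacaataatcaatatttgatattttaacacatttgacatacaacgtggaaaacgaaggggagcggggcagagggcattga
ind upstream, pooled list, chr3L:15043925-15044108, plus strand: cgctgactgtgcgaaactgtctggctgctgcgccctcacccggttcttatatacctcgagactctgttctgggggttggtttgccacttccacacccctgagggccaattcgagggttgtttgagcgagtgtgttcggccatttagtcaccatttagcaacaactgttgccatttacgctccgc

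Among the columnar genes, vnd had a summit just before its start, Dr had a summit on each side of the gene, and ind had none in the optimal set. Both SoxB genes had 1 summit each, at the start of SoxN and beyond the 3′ end of D. Having a summit in the body or within 2 kb was common, since 36.8% of all protein-coding genes had one in the optimal set. A summit within 500 bp of an own transcription start site was present at 3 of the 5 genes, vnd, Dr and SoxN, against 20.4% of all protein-coding genes. All 5 genes had a summit in the deeper lists, against 65.9% of all genes in the pooled list, 69.8% in replicate 2 and 66.0% in replicate 3. These shares of 5 genes were not tested. The deeper lists reach down to −log10 q-values of 0.323 (pooled), 0.237 (replicate 2) and 0.402 (replicate 3). They thus include weakly supported peaks, and a summit in them is not by itself a call of binding. Longer genes have wider windows, so genes were also split into 5 length classes of equal size. Both vnd and Dr had an optimal summit, against 58.0% of genes in their class (6458 to 1965857 bp). Both SoxN and D had one, against 42.2% in their class (2839 to 6455 bp), and ind had none, against 29.8% in its class (1024 to 1717 bp).

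**Figure D1:**
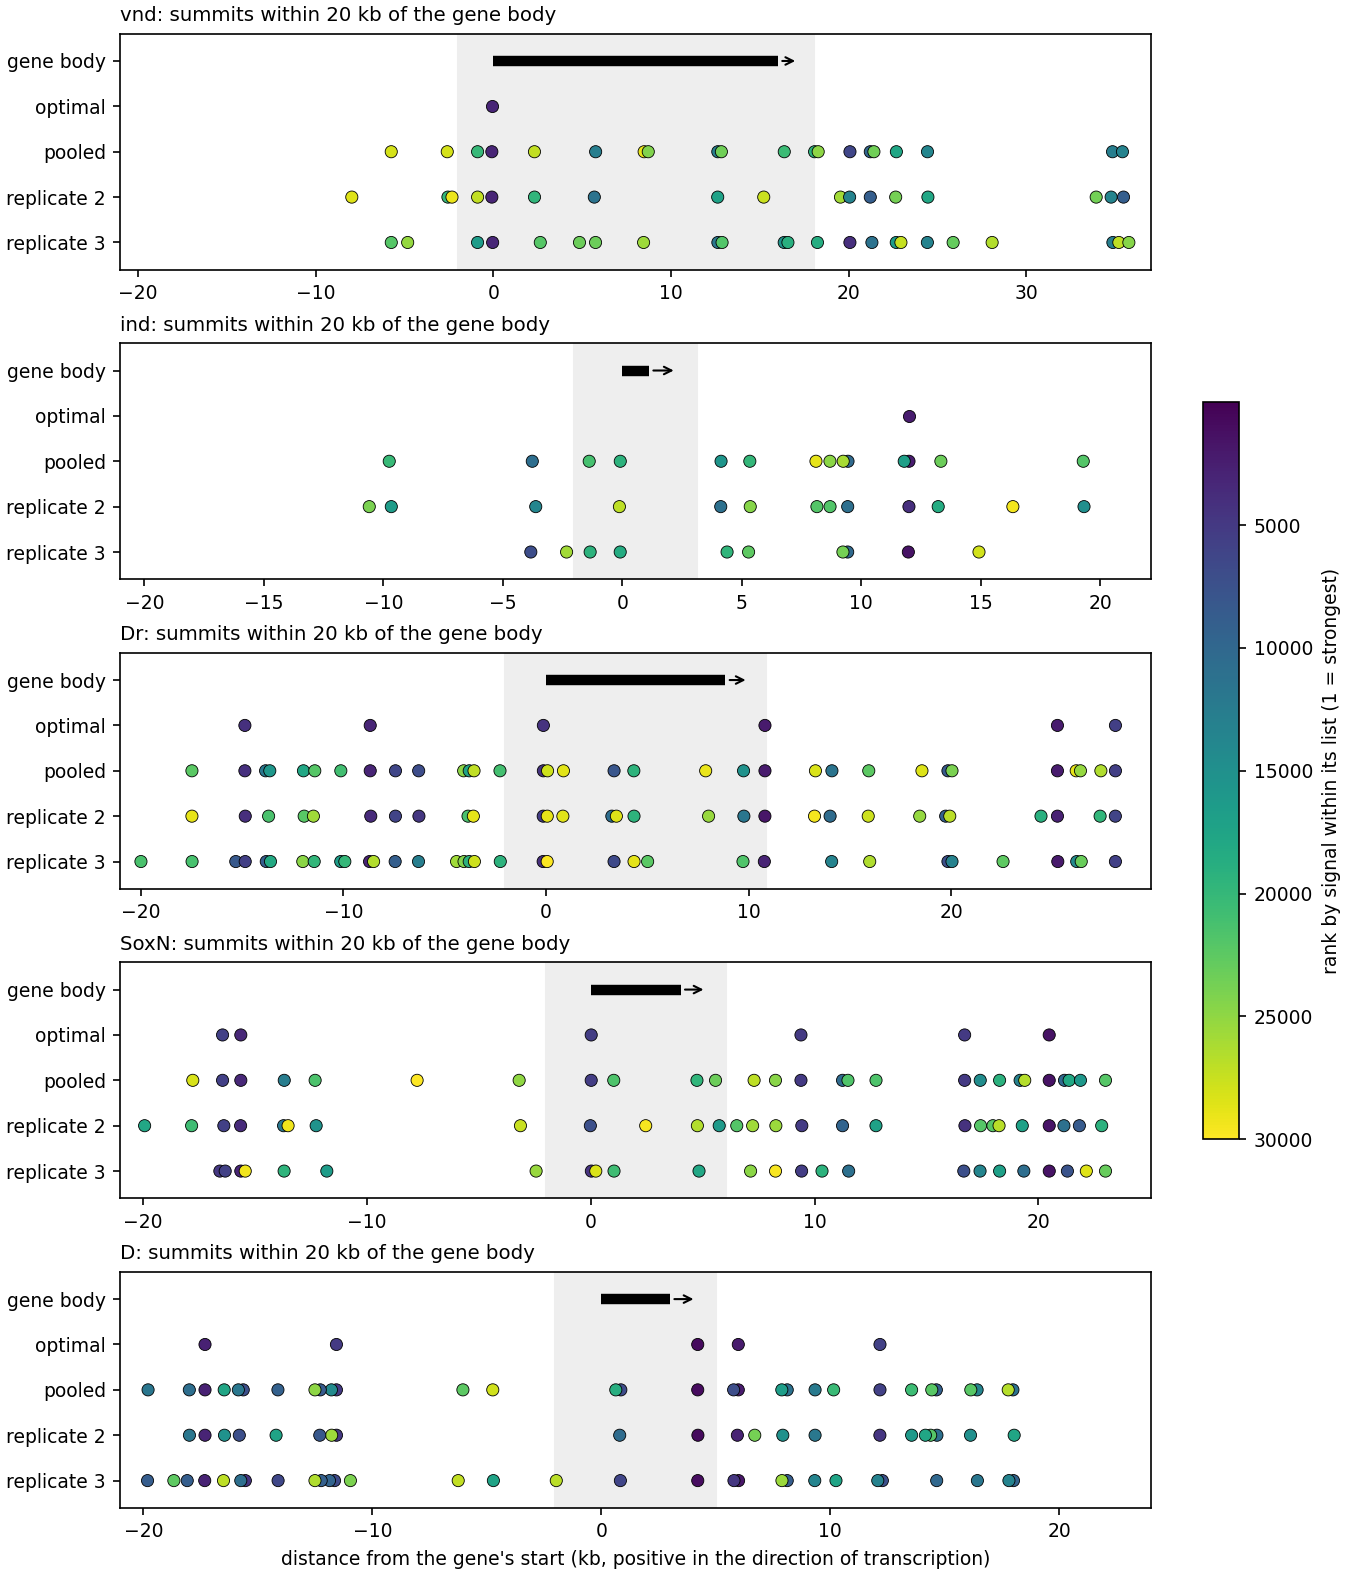
Summits of the 4 lists within 20 kb of each gene, by distance from the gene start in kb along the direction of transcription, with black bars for gene bodies, grey for the body with 2 kb on each side, and darker points for stronger ranks. In the grey areas, optimal summits lie at the starts of vnd, Dr and SoxN and beyond the 3′ ends of Dr and D, and ind has only summits of the pooled and replicate lists.

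The gene vnd (FBgn0261930, X:582121-598151, plus strand) encodes an NK-2 class homeodomain repressor that specifies the ventral column. Its only optimal summit was at X:582033, 88 bp upstream of the gene start and outside any annotated gene. The peak was 118 bp wide, against 384 and 440 bp in replicates 2 and 3, the most common widths of those lists. Its signal value was 284, where signal is the authors' enrichment value from the peak caller, with a median of 289.8 over the optimal set and a range of 169 to 5071. It ranked 3162 of 6152, so 48.6% of optimal peaks were weaker. The peak ranked 3148 of 30000 in replicate 2 and 3232 of 30000 in replicate 3, with signals of 146 and 142. These ranks differed 1.03-fold, and only 3.80% of all optimal peaks had ranks closer than that, while the median fold over all optimal peaks was 1.40. The replicate summits lay 46 bp apart, against a median of 24 bp over all optimal peaks.

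Inside vnd the pooled list held 6 summits, all in introns, and most of the gene overlaps spdi on the other strand (X:585081-620195). The strongest intronic summits lay 12637 bp and 5757 bp from the gene start, with signals of 90.6 and 90.2 and ranks of 12657 and 12737 of 30000. Both are also in spdi introns, so their position does not assign them to either gene. Both overlapped a peak in each replicate, at ranks of 17315 and 11865 for the first and 11427 and 23245 for the other in replicates 2 and 3. None of the intronic summits reached the optimal set, whose weakest peak had a signal of 169. Beyond the window, the closest optimal summit was 20569 bp downstream of the gene end.

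The gene ind (FBgn0025776, 3L:15042799-15043924, minus strand) encodes a Gsh class homeodomain protein needed for the intermediate column. It spans 1126 bp and lies inside an intron of Sytbeta, a synaptotagmin gene on the same strand. No optimal summit lay in its body or within 2 kb. The pooled list had a summit 84 bp upstream of its start, with a signal of 59.9 and a rank of 19226 of 30000, and a weaker one 1384 bp upstream with a signal of 54.5. The first overlapped a peak in both replicates, with summits 120 bp upstream at rank 26988 in replicate 2 and 87 bp upstream at rank 18417 in replicate 3. The other overlapped a peak in replicate 3 alone, at rank 19321. The pooled −log10 q-value of the first was 0.876, so the start of ind was marked only among the weak peaks. Every optimal peak has the value 4.21, the highest of the pooled list, which some peaks outside the optimal set also have. The nearest optimal summit was 10873 bp beyond the 3′ end of ind, with a signal of 353, and the start site closest to it was one of Sytbeta.

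The gene Dr (FBgn0000492, 3R:29556386-29565244, plus strand) encodes an Msx class homeodomain protein of the dorsal column and had 2 optimal summits, more than the other genes within 2 kb. With 20 kb SoxN had as many as Dr, 6 each, and with 5 kb D had as many, 2 each. Its upstream summit, at 3R:29556257, lay 129 bp before the gene start with a signal of 222 and a rank of 4382 of 6152. That peak ranked 5293 in replicate 2 and 3990 in replicate 3, with signals of 96.1 and 124. The downstream summit, at 3R:29567193, lay 1949 bp beyond the gene end, just inside the 2 kb limit, with a signal of 362 and a rank of 2223. That peak ranked 1757 in replicate 2 and 2969 in replicate 3, with signals of 222 and 149.8. The downstream peak was thus the stronger of the pair in the pooled and both replicate lists. Their replicate ranks differed 1.33-fold for the upstream and 1.69-fold for the downstream peak, and 68.5% of optimal peaks had ranks closer than the downstream one.

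Between the 2 optimal summits, the pooled list had a summit in an intron of Dr, 3360 bp from the gene start. It had a signal of 134 and a rank of 8085 of 30000, with ranks of 10608 and 6623 in replicates 2 and 3. The next optimal summit outside the window was 8674 bp upstream of Dr, with a signal of 286 and a rank of 3133. The other 4 pooled summits inside the gene, in the 5′ UTR, the coding sequence and an intron, had signals from 38.3 to 59.5, and one beyond its 3′ end had 75.8.

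The gene SoxN (FBgn0029123, 2L:8825645-8829670, plus strand) encodes a SoxB protein expressed throughout the neuroectoderm. Its optimal summit lay at 2L:8825669 in the 5′ UTR, 24 bp into the gene. With a signal of 189.6 and a rank of 5332 of 6152, it was the weakest of the 5 optimal summits, and 13.3% of optimal peaks were weaker. It ranked 7270 of 30000 in replicate 2 with a signal of 73.1, and 4360 of 30000 in replicate 3 with a signal of 116. The replicate 2 summit lay 14 bp upstream of the start and the 2 replicate summits were 44 bp apart. In replicate 2 alone the SoxN peak would not be among the 6152 strongest, and SoxN then has no peak in a set of that size. The pooled list had 3 other summits at SoxN, in the coding sequence and beyond the 3′ end, with signals between 49.1 and 58.9.

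The gene D (FBgn0000411, 3L:14175610-14178620, minus strand) encodes the SoxB protein Dichaete, which also acts in segmentation. Its optimal summit, at 3L:14174407, was the strongest at the 5 genes and lay 1203 bp beyond the 3′ end of the gene. The signal was 649 and the rank 891 of 6152, so 85.5% of optimal peaks were weaker. It ranked 873 in replicate 2 and 989 in replicate 3, with signals of 344 and 299, and the replicate summits were 7 bp apart. A further optimal summit was just outside the window, 2975 bp downstream of D, with a signal of 362 and a rank of 2217.

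None of the optimal summits on the 3′ side of D was near a start site of the gene, but a weaker peak was. In the pooled list a summit in the 5′ UTR of the longer transcript lay 229 bp upstream of the inner start site of D. Its signal of 154 and rank of 6892 of 30000 placed it just below the optimal set, and it ranked 10446 in replicate 2 and 6099 in replicate 3. This was the strongest of the 21 pooled summits at the 5 genes that were not in the optimal set. Those 21 had signals from 38.2 to 154 with a median of 56.4, and −log10 q-values from 0.347 to 4.21. Of them, 13 overlapped a peak in both replicates. The other 8 overlapped a peak in 1 replicate. A replicate peak could count for more than 1 pooled summit. The D summits 854 and 634 bp from the gene start matched the same peaks, at ranks 10446 and 6099. For the weaker of them, the replicate summits lay 171 and 201 bp away. The share over all pooled peaks outside the optimal set was not counted.

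**Figure D2:**
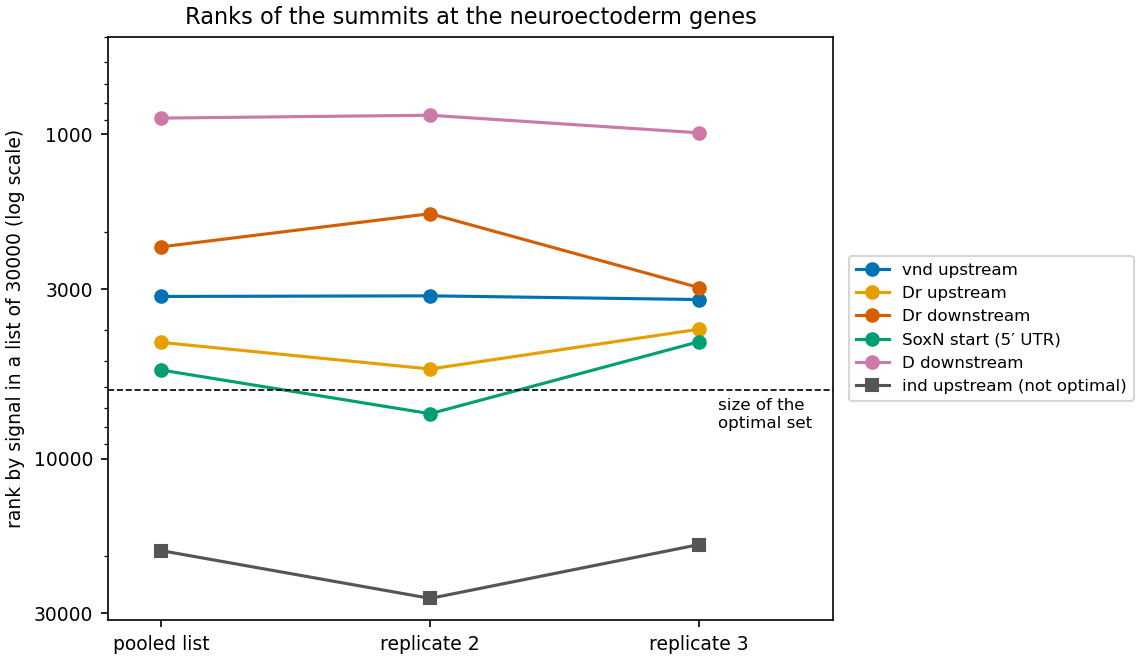
Rank by signal (log scale, strongest at the top) of 6 summits in the pooled, replicate 2 and replicate 3 lists, with lines joining the same summit and a dashed line at the size of the optimal set, 6152. The D summit is between ranks 873 and 989, the SoxN summit falls on both sides of the dashed line (7270 and 4360 in the replicates), and the ind summit is between 18417 and 26988.

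Over all 26 pooled summits, 11 lay outside the body of the gene they were counted for. In that gene, 8 lay in introns, 4 in 5′ UTRs and 3 in coding sequence. Among the 11, the summit beyond the 3′ end of vnd lay in a spdi intron, and both ind summits in a Sytbeta intron. Of the 5 in the optimal set, 4 lay outside the bodies, 1 in a 5′ UTR and 0 in introns or coding sequence. The shares of all optimal summits in these classes were not counted, so the split of 5 summits has nothing to be read against. Each of the 5 optimal peaks overlapped a peak in both replicate lists, as did 98.5% of all optimal peaks (6058 of 6152). The exact binomial 95% interval over peaks was 98.1% to 98.8%. The optimal set was selected by how well these replicates rank the same peaks, so this overlap is largely built in. Only 2 of the 5, at D and downstream of Dr, were stronger than the median optimal peak. Within 500 bp of a protein-coding start site lay 3 of the 5 summits and 37.0% of all optimal summits.

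**Figure D3:**
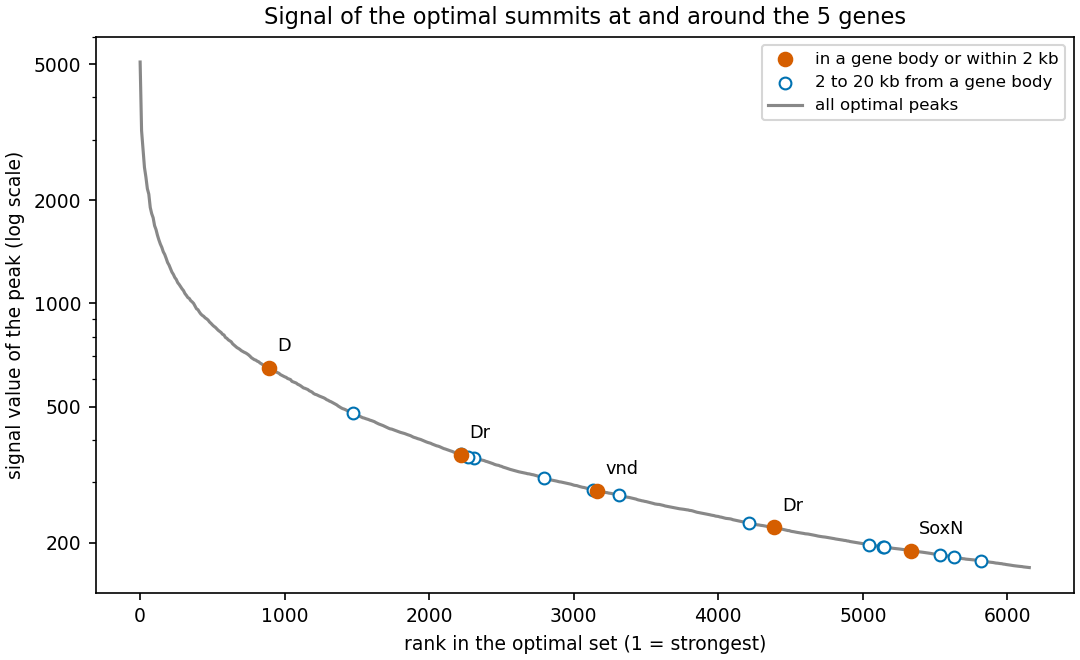
Signal value (log scale) against rank for all 6152 optimal peaks (line), with filled points for the 5 summits in the gene bodies or within 2 kb and open points for summits 2 to 20 kb away. The D summit has a signal of 649 and the SoxN summit one of 189.6, near the weak end of the set at 169.

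Wider windows separated the genes further. Within 20 kb of the bodies there were 6 optimal summits at Dr, 6 at SoxN and 5 at D, but 1 each at vnd and ind, against a median of 2 over all protein-coding genes. Fewer than 6 summits were counted at 87.1% of all genes, and fewer than 5 at 79.4%. Counting each optimal summit for the gene with the nearest protein-coding start site, at any distance, SoxN had 5, Dr 4, D 3, vnd 1 and ind 0, against a median of 0 over all genes. The share of genes with fewer was 98.3% for SoxN, 97.4% for Dr and 95.7% for D. The distances to neighbouring genes also differ. SoxN has gaps of 43144 and 33105 bp, Dr of 39858 and 21992 bp, and D of 44285 bp to Sox21b, another SoxB gene, on one side and 7628 bp to nan, a channel gene, on the other. By contrast vnd is 3076 bp from Appl and overlaps spdi, and ind lies inside Sytbeta. The part of these gaps in the counts was not tested. The SoxN summits nearest to its start site lay from 16440 bp upstream to 16702 bp downstream of the gene start, with signals from 181.7 to 275. A stronger summit, 20479 bp from the SoxN start with a signal of 478, was nearer to the start of CG32986.

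The sequences around the summits differ in base composition, counted here with the exon bases that were not printed. Within 50 bp of the summit, the windows at the start-proximal summits had GC contents of 66.3% at SoxN, 58.4% upstream of Dr and 42.6% at vnd, and the pooled ind summit had 54.5%. The 3′ windows had 31.7% at D and 28.7% downstream of Dr. The median over all optimal windows was 32.7%, with quartiles of 26.7% and 42.6%. Thus the SoxN window had more GC than 99.8% of optimal windows and the upstream Dr window more than 97.5%.

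In all, 18 motifs were searched on both strands within 50 bp of each summit, and 3 of them were added after the windows had been read. Positions before and after a summit run along the plus strand. The class C site CACGCG, one of the sequences that Hairy-related proteins bind, was present upstream of Dr, 11 to 6 bp before the summit, and at SoxN, 8 to 13 bp after it. It was in 3.32% of all 6152 optimal windows and in 16.5% of the 689 windows with at least 50% GC, to which both belong. The E box CACGTG, in 2.00% of optimal windows, and the N box CACNAG, in 9.93%, were in none of the 5. Farther out, the N box occurred 68 bp before the downstream Dr summit, and 19.9% of optimal windows of 201 bp held it. CAAGTG, the core of the site that NK-2 class proteins such as Vnd bind, lay 45 to 40 bp before the downstream Dr summit and was in 5.48% of optimal windows. The GAGA-type repeat GAGAGAG lay upstream of Dr, 15 to 23 bp after the summit in 2 shifted matches, against 1.54% of optimal windows.

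At vnd the sequence ATCGATA was matched on both strands 7 to 14 bp after the summit, against 2.60% of optimal windows. It is a core shared by the sites of the promoter-binding factor DREF and of BEAF-32, so the match does not tell these proteins apart. This motif was among those added after the windows had been read. The Su(H) sequences CGTGGGAA or CGTGAGAA or TGTGGGAA or TGTGAGAA, bound by the DNA-binding partner of Notch, were in none of the 5 windows and in 1.09% of all optimal windows. The Sox sequences ACAATG (6.16%) and ACAAAG (7.38%) were in none of the 5, and neither was the homeodomain core TAATTA (9.85%). TAATTA occurred 90 bp before the D summit, and 16.6% of optimal windows of 201 bp held it. The remaining motifs were the proneural E boxes CAGCTG (4.84%) and then CAGGTG (2.88%), the Zelda site CAGGTAG (0.650%), the E box CATATG (4.14%) and the GATA site AGATAA (7.93%), and none of the 5 windows held any of them. CATATG did occur 81 bp before the vnd summit, and 7.83% of optimal windows of 201 bp held it. None of the 18 motifs was in the 201 bp around the pooled ind summit.

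The genes whose strongest summits had ranks most like these were taken from 8297 protein-coding genes by the Euclidean distance between log10 ranks in the pooled and the 2 replicate lists. For vnd they were CG5390 and Cdk5alpha, which share a summit at ranks 3135, 3110 and 3210 in the pooled, replicate 2 and replicate 3 lists (distance 0.00711). For SoxN the closest was pav, at ranks 5311, 7346 and 4315 (distance 0.00661), and then CG14115 (0.0240). For Dr they were CG1662 and Ype, sharing ranks 2188, 1793 and 2939 (0.0120), and for D they were lectin-37Da and Lectin-galC1, sharing ranks 882, 893 and 996 (0.0112). For ind, with no optimal summit, they were CG42615 (0.0202) and Gadd45 (0.0260).

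Genes of neuroectoderm patterning, neuroblast formation and the Sox family were counted in 5 lists. Of these, 33 of 57 (57.9%) had an optimal summit in the body or within 2 kb, against 36.8% of all protein-coding genes. The lists were not split by gene length, and in the class of the longest genes the share of all genes was 58.0%. Of the genes that supply dorsoventral information, 14 of 17 had one. The strongest were at sim, the regulator of the ventral midline, with a signal of 1697 and rank 99, at aop, an ETS repressor, with 1037, and at vn, an Egfr ligand, with 1019. The genes without one were tld, scw and tsg, which act in BMP signalling at the dorsal side. The vn summit was nearest to the start site of mad2.

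Of 12 genes of neuroblast formation, 8 had an optimal summit, led by pros (1638, rank 113), a homeodomain regulator of neuroblast daughters, wor (927), a Snail-family zinc finger gene, and eg (432). The proneural genes ac, sc and l(1)sc had none, and neither did dpn, a Hairy-related gene of neuroblasts. Of the segmental and head neuroectoderm genes 5 of 15 had a summit, led by the forkhead gene slp1 (1032), the head gap gene oc (285) and hh (262), a segment polarity ligand whose summit was nearest to the start of CG31457. Among later homeodomain genes of neural columns only ey had one (265), of 7. Of the other Sox genes 5 of 6 did, led by Sox14 (1784, rank 89), with Sox100B (553) and Sox102F (361) next and Sox15 without one. Besides vn and hh, some other genes of the lists, other Sox genes among them, had their strongest summit nearest to a start site of another gene. No list was tested, since the genes were listed with results of these data known.

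**Figure D4:**
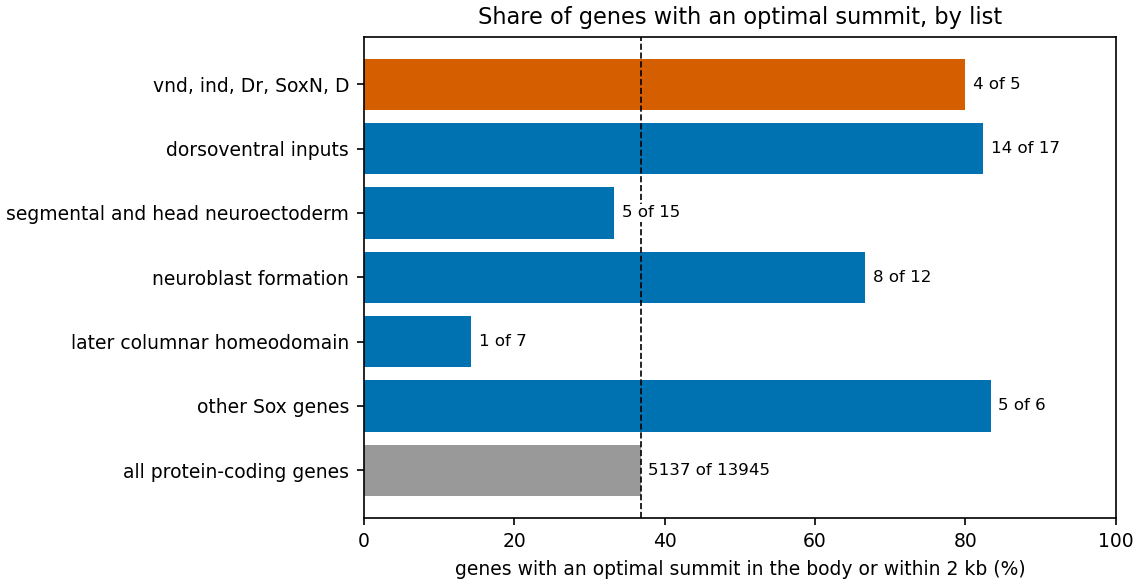
Share of genes (percent) with an optimal summit in the body or within 2 kb, for the 5 neuroectoderm genes and the 5 lists, with the counts beside each bar and a dashed line at 36.8% for all protein-coding genes. The dorsoventral (14 of 17) and Sox (5 of 6) lists have the highest shares among the lists, and the later homeodomain list (1 of 7) the lowest.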

How the data were processed

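Peaks came from 4 deposited lists on dm6: the authors' optimal set, a list on pooled replicates and 1 list for each of 2 replicates. The signal of each peak is the authors' enrichment value, and its −log10 q-value is likewise deposited by the authors. Both were used only within a list, where the 6152 optimal peaks are the strongest of the pooled list with the same values. Ranks in the pooled and replicate lists are of 30000 peaks each. The replicate lists name the same control file and the pooled list another, per the file headers, and no control was analysed here. The sources used here do not name the peak caller, the aligner or their versions, and the depth is unknown.

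Summits were placed on genes of Ensembl release 115 (transposable elements left out, 6 arms) and on the Release 6 genome, with Python 3.11.15, pandas 2.3.3 and numpy 2.4.6. A summit counted for a gene in its body or within 2 kb. Peaks were shared when they overlapped by at least 1 bp. Motifs were searched within 50 bp of a summit. The counting code was checked on simulated peaks, which is no test of these counts. Named genes are the 5 genes, their neighbours nearest to a summit, the 2 genes with the most similar ranks, and the 3 strongest of each list with those lacking a summit where 5 or fewer. The genes and lists were chosen with earlier results of these data known, and no significance test was made with 1 group. Alternatives were other flanks, the stronger 50% of peaks, other ways to assign summits and each replicate left out.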

Additional observations from a re-analysis of the deposited data

How the results depend on the processing

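The number of the 5 genes with an optimal summit was 4. It was 1 with the gene bodies alone (0 bp), 3 with 500 bp, 4 with 5 kb, 5 with 20 kb and 2 with the stronger 50% of peaks. The number of optimal summits counted was 5. It was 1 with the gene bodies alone, 3 with 500 bp, 19 with 20 kb and 2 with the stronger 50% of peaks, and 13 when each summit went to the nearest start site at any distance, which was added after seeing the data. The share of all genes with a summit moved too, to 13.3%, 27.7%, 50.9% and 80.3% with 0 bp, 500 bp, 5 kb and 20 kb. It was not counted for the stronger 50% of peaks. With 1 replicate left out, using the 6152 strongest peaks of the other, 3 to 4 genes and 4 to 6 summits were counted: SoxN lost its summit without replicate 3, and D had 2 without replicate 2. The share of all genes was then 38.5% without replicate 3 and 35.3% without replicate 2. Sharing between replicates was 5 of 5, and 4 of 5 with a reciprocal overlap of 50%, which the vnd peak missed, or within the 6152 strongest peaks, which the SoxN peak missed. The counts of CACGTG or CACGCG (2 windows) were the same in windows of 51 and 201 bp, and the list genes numbered 29 with 500 bp and 40 with 5 kb, against 33. No paired analysis was possible because there was 1 group only. The depth behind the peaks is unknown, so a summit missing from a list is not shown to be missing from the chromatin.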
